A study of Mus musculus with 7 samples.

Results

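The 10 genes described here encode antimicrobial proteins and oxidant-producing enzymes of the intestinal epithelium: Reg3b, Reg3g, Reg4, Lyz1, Ang4, Pla2g2a, Lcn2, Duox2, Duoxa2 and Nos2. They were chosen by symbol, as rows of a count table of 43346 genes measured in 7 whole colon tumors of mice. All 10 were among the 15810 genes with enough counts to be tested. Recipients were wild-type C57BL6/J mice, aged 8 weeks according to the labels (the study's methods give a younger age), and received bone marrow (BM) after lethal irradiation. The methods describe them as congenic mice with the CD45.1 allele of the leukocyte marker CD45, and the grafts as CD45.2. The donors were Dnmt3a+/- (one copy of the DNA methyltransferase gene Dnmt3a deleted) for 4 tumors and Dnmt3a+/+ for 3 tumors. Donors of both groups carried the Mx1-Cre transgene, an interferon-driven recombinase, and had been given poly(I:C) to activate it. All recipients then received 1 dose of the carcinogen azoxymethane (AOM, 10 mg/kg). Dextran sulfate sodium (DSS), which injures the colon lining, followed at 3% in the drinking water in 3 cycles of 1 week on and 2 weeks off. The recipients' own cells, including the tumor epithelium, carried both copies of Dnmt3a in both groups, so the comparison asks how the grafted blood system relates to defense gene expression in the tumor.

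The colon epithelium secretes C-type lectins, lysozyme, ribonucleases and phospholipases that act on bacteria near the mucosal surface. The cytokine IL-22, which signals through STAT3, is a known inducer of Reg3b and Reg3g, and IL-17 and IL-22 are known inducers of Lcn2. Paneth cells, which make lysozyme and alpha-defensins, are normally confined to the small intestine, but Paneth-like products can appear in inflamed colon and in colon tumors.

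Total counts were 38472738 to 64314999 per tumor, and the tumors came from 2 transplantation experiments. BMT18 held replicates 1 and 2 of each group, and BMT8 held Dnmt3a+/+ BM replicate 3 with Dnmt3a+/- BM replicates 3 and 4. Dnmt3a itself was at 24.3, 23.1 and 20.2 CPM (counts per 1000000, scaled by TMM, a correction for library composition) in Dnmt3a+/+ BM replicates 1 to 3 and at 27.7, 43.0, 28.3 and 22.0 CPM in Dnmt3a+/- BM replicates 1 to 4. These counts pool recipient and graft RNA and do not check the deletion. Epithelial markers were present in every tumor, with a summed level of 10816 to 38798 CPM over 10 genes. Dnmt3a+/+ BM replicate 3 stood apart with the highest epithelial sum and with 22.6 CPM over 6 smooth muscle markers, against 243 to 1167 CPM in the other tumors. Dnmt3a+/- BM replicate 2 stood apart with 623 CPM over 10 macrophage markers and 1022 CPM over 8 fibroblast markers, against at most 161 and 361 CPM elsewhere. Lyz2 alone made up 358 of the 623 CPM, and the macrophage marker Mrc1, at 13.7 CPM, was within the range of the other tumors. In RNA from a whole tumor, fewer cells of a type and less RNA per cell cannot be told apart.

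Of the 10 genes, 3 had a higher fitted level in the Dnmt3a+/- BM tumors (Lcn2, Pla2g2a and Ang4) and 7 a lower one. The median log2 fold change of the 10 was -0.59, and that of all genes tested was 0.00. Without Dnmt3a+/+ BM replicate 3 the median was 0.21, with 7 genes higher and 3 lower, and in BMT18 alone it was 0.75. Without both that tumor and Dnmt3a+/- BM replicate 2 it was -0.075, with 4 higher and 6 lower. The sign of the median thus depends on the tumors kept. No gene of the 10 passed an adjusted p of 0.05 with an absolute log2 fold change over 1 in edgeR's quasi-likelihood test, where 0.00% of all genes did. At an unadjusted p under 0.05 there were 3 of 10 (Lcn2, Reg4 and Duoxa2), against 11.0% of all genes. Of these, Lcn2 was higher, against 5.83% of all genes, and the other 2 were lower, against 5.20%. DESeq2 called 0 of the 10, with 2 at an unadjusted p under 0.05, against 1.87% and 8.99% of all genes, and it returned no p for Lcn2 and Reg3g, where its distance cutoff for single extreme tumors applied. Without that cutoff, an option chosen after the values were seen, DESeq2 called Lcn2 alone, against 1.78% of all genes, and 4 of the 10 were at an unadjusted p under 0.05, against 9.26%. Levels of 2 of the 10 genes, Lcn2 and Duoxa2, did not overlap between the groups, a pattern found in 12.4% of all genes (6.12% in the direction of Lcn2 and 6.32% in that of Duoxa2). Without Dnmt3a+/- BM replicate 2, 3 of the 10 were at an unadjusted p under 0.05 in edgeR, against 7.16% of all genes. Without Dnmt3a+/+ BM replicate 3 there were 5, against 12.2%, and without both tumors 5, against 11.2%.

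**Figure D1:**
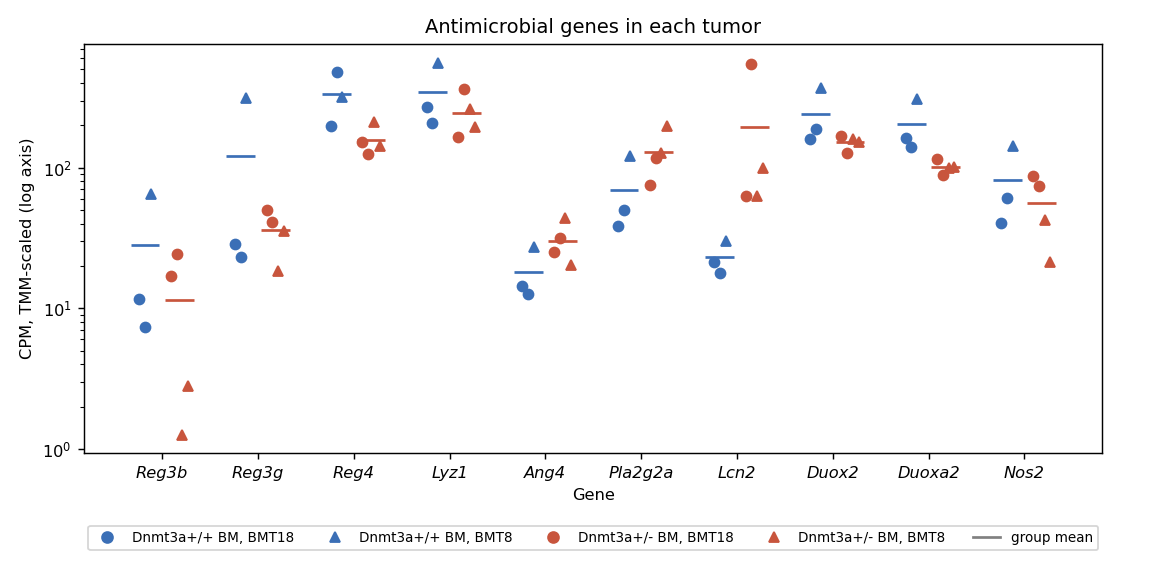
TMM-scaled CPM (log axis) of each antimicrobial gene in each tumor, with group means as horizontal bars; blue marks Dnmt3a+/+ BM (n = 3), red Dnmt3a+/- BM (n = 4), circles BMT18 and triangles BMT8. Lcn2 in the 4 Dnmt3a+/- BM tumors lies between 62.8 and 550 CPM, all above the control tumors, and Duoxa2 between 89.1 and 116 CPM, all below them.

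Reg3b and Reg3g are C-type lectins that bind the bacterial cell wall, and lie in one cluster on chromosome 6, 92802 bases apart. In GENCODE M21 on GRCm38, Reg3b spans chr6:78370657-78373466 on the plus strand and Reg3g chr6:78466269-78468872 on the minus strand. The 2 upstream regions are printed because these genes varied more between tumors than most of the others and share upstream sequence. Both are from RefSeq promoter records on GRCm38.p6, at chr6:78370707-78370884 on the plus strand and chr6:78468875-78469124 on the minus strand, and end at the base before the RefSeq start. The Reg3b stretch lies inside the GENCODE span, which begins at a first exon further upstream, and its last 24 bases are a 5' untranslated part of GENCODE transcripts. Capitals mark the longest run common to both.
Reg3b: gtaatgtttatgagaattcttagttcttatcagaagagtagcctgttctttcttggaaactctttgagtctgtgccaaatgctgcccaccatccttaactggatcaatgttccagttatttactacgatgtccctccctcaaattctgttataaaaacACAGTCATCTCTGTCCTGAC
Reg3g: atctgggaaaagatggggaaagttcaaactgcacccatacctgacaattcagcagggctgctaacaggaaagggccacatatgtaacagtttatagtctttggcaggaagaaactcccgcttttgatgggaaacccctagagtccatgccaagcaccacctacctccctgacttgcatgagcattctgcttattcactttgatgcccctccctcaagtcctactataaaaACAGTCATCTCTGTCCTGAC
The shared run has 20 bases, and over 250 bases upstream 177 of 257 aligned columns were identical, or 68.9%. Each holds the TATA box letters TATAAA, at -29 to -24 in Reg3b and at -27 to -22 in Reg3g, which 12.4% of 32851 promoters of the same length hold on either strand. Reg3b holds TTCTTGGAA at -129 to -121, a match to the STAT letters TTCNNNGAA found in 7.02% of promoters. Reg3g has no match to those letters in this window and holds GGGAAACCCC at -123 to -114, a match on both strands to the kappaB core (GGG and CC separated by any 5 bases) found in 45.8% of promoters.

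Reg3b was at 11.7, 7.35 and 64.9 CPM in Dnmt3a+/+ BM replicates 1 to 3. It was at 17.0, 24.4, 1.26 and 2.81 CPM in Dnmt3a+/- BM replicates 1 to 4. The groups overlapped, and the highest and the lowest tumor, which differed 51.6-fold, were both from BMT8. The means were 28.0 ± 32.1 CPM (SD, n = 3) and 11.4 ± 11.2 CPM (SD, n = 4), with a log2 fold change of -1.30 (SE 1.09, edgeR adjusted p = 0.69) and an exact permutation p of 0.31. Reg3g was at 28.6, 23.3 and 311 CPM in the Dnmt3a+/+ BM tumors and at 50.0, 40.9, 18.4 and 35.7 CPM in the Dnmt3a+/- BM tumors. A single control tumor, replicate 3, was thus 6.22-fold above the next tumor, and the other 6 lay in one range. The log2 fold change of Reg3g was -1.74 (SE 0.88, edgeR adjusted p = 0.51; exact permutation p = 0.63), and without that control tumor it was 0.48. For Reg3b the fitted value without it was 0.26, while its difference in mean log2 CPM was -1.50 with that tumor and -0.57 without it. Leaving out both tumors that stand apart gave a fitted value of -0.44 for Reg3b, so the sign of its difference depended on the measure and on the tumors kept. The ratio of Reg3g to Reg3b counts was 1.68 to 4.79 in 5 tumors, and 14.6 and 12.7 in Dnmt3a+/- BM replicates 3 and 4, the Dnmt3a+/- BM tumors of BMT8. It was thus high in the 2 tumors with the least Reg3b, and its groups overlapped (exact permutation p = 0.46). Reg3a, the neighbour in the cluster that is closest in family name, had at most 3 counts in any tumor.

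Reg4 is a C-type lectin of deep crypt secretory and enteroendocrine cells, encoded at chr3:98222156-98236748, plus strand. It was at 198, 476 and 320 CPM in the Dnmt3a+/+ BM tumors and at 152, 125, 210 and 142 CPM in the Dnmt3a+/- BM tumors. Only replicate 3 of the Dnmt3a+/- BM group, at 210 CPM, reached the range of the controls. The means were 331 ± 140 CPM (SD, n = 3) and 157 ± 37.0 CPM (SD, n = 4). Fitted by edgeR, this was a log2 fold change of -1.08 (SE 0.31), with an unadjusted p of 0.0092, an adjusted p of 0.37 in edgeR and an exact permutation p of 0.086. Reg4 kept its lower level in both experiments, at -1.27 in BMT18 and -0.87 in BMT8. Goblet cell markers were measured beside it, and 8 of 8 had a lower fitted level, 3 at an unadjusted p under 0.05 (against 5.20% of all genes in that direction). Muc2 had the smallest change of the 8, at -0.031 (SE 0.55), and was highest, at 554 CPM, in Dnmt3a+/- BM replicate 2. The 8 markers summed to 1638 to 3952 CPM in the Dnmt3a+/+ BM tumors and 660 to 2117 CPM in the Dnmt3a+/- BM tumors. Their part in the Reg4 difference was not tested.

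Lyz1 encodes the lysozyme of Paneth cells, which cleaves bacterial cell walls, at chr10:117287797-117292868 on the minus strand. It was at 270, 209 and 559 CPM in the Dnmt3a+/+ BM tumors and at 165, 365, 262 and 194 CPM in the Dnmt3a+/- BM tumors. The groups overlapped and the log2 fold change was -0.49 (SE 0.40, edgeR adjusted p = 0.68; exact permutation p = 0.40). Without Dnmt3a+/+ BM replicate 3 it was 0.047. Lyz2, the lysozyme of myeloid cells, lies 5475 bases away and shared 24 of the 1164 windows of 100 bases in Lyz1 transcripts, or 2.06%. Lyz2 was at 24.7 to 46.4 CPM in 6 tumors and at 358 CPM in Dnmt3a+/- BM replicate 2. In that tumor the ratio of Lyz1 to Lyz2 counts was 1.02, against 3.86 to 14.8 in the other 6, and the ratio overlapped between the groups (exact permutation p = 0.23).

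Ang4 is a ribonuclease of the angiogenin family with bactericidal activity, made by Paneth and goblet cells, at chr14:51763878-51773590 on the minus strand. It was at 14.5, 12.6 and 27.4 CPM in the Dnmt3a+/+ BM tumors and at 25.2, 31.8, 43.7 and 20.4 CPM in the Dnmt3a+/- BM tumors. The groups overlapped through Dnmt3a+/+ BM replicate 3, and 2 of the 4 Dnmt3a+/- BM tumors lay above every control. Ang4 had a log2 fold change of 0.74 (SE 0.36, edgeR adjusted p = 0.49; exact permutation p = 0.14). Without that tumor it was 1.17 (unadjusted p = 0.013 in edgeR). Its paralogs Ang2, Ang5 and Ang6 had 0 counts in all 7 tumors, and Ang was at 4.96 to 9.29 CPM. Pla2g2a, a secreted phospholipase that degrades bacterial membranes, lies at chr4:138831857-138835186 on the plus strand. The C57BL/6 strain is known for a frameshift in this gene that disrupts the protein, so its RNA level is not a level of enzyme. It was at 38.8, 49.8 and 120 CPM in the Dnmt3a+/+ BM tumors and at 75.2, 118, 128 and 197 CPM in the Dnmt3a+/- BM tumors. As with Ang4, only replicate 3 of the controls reached the range of the other group. The log2 fold change was 0.90 (SE 0.46, edgeR adjusted p = 0.51; exact permutation p = 0.17), and without that tumor it was 1.54.

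Transcripts of Paneth cell defensins were present but low: the 5 defensins among the 8 Paneth cell markers did not exceed 36.0 CPM in any tumor, and none of the 8 was at 0 in every tumor. The sum of the 8 was 132 to 459 CPM in the Dnmt3a+/+ BM tumors and 241 to 530 CPM in the Dnmt3a+/- BM tumors, in both cases mostly from Mmp7 and Itln1, which other cells of the colon also make. Of the 7 that were tested, 6 had a higher fitted level in the Dnmt3a+/- BM tumors. Of these 6, Mmp7 alone was at an unadjusted p under 0.05 in edgeR, against 5.83% of all genes in that direction. Defa17 had the smallest log2 fold change of the 6, at 0.076 (SE 1.03). The part of these markers in the Lyz1, Ang4 and Pla2g2a values was not tested.

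Lcn2 encodes lipocalin 2, which binds bacterial siderophores and so withholds iron, and is made by both inflamed epithelium and neutrophils. The gene spans chr2:32384633-32388252 on the minus strand. Its upstream region, from RefSeq on GRCm38.p6 at chr2:32387798-32387989 (minus strand, bases -250 to -59 from the RefSeq start), is printed because Lcn2 had the largest fitted difference of the 10 genes. It lies inside the GENCODE span, since 1 GENCODE transcript starts further upstream and has an exon that covers part of it. Capitals mark matches to the C/EBP core TTGCNNAA at -216 to -209 and, read on the other strand, to the kappaB core at -102 to -93.
Lcn2: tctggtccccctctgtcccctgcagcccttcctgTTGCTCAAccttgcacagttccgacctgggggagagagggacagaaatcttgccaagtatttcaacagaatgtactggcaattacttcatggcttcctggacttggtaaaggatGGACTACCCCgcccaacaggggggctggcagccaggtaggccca
Of all promoters, 9.56% hold the C/EBP letters and 45.8% the kappaB letters on either strand. Lyz1 holds the former at -209 to -202 and Ang4 a match to the STAT letters at -192 to -184, and Reg4 and Duox2 hold none of the 4 motifs. No match overlapped a match to another motif. RefSeq promoters were matched for 8 of the 10 genes.

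Lcn2 was at 21.2, 17.8 and 29.9 CPM in Dnmt3a+/+ BM replicates 1 to 3. It was at 62.8, 550, 63.2 and 99.0 CPM in Dnmt3a+/- BM replicates 1 to 4. Every Dnmt3a+/- BM tumor was above every control, and replicate 2 was 5.55-fold above the next tumor. The means were 23.0 ± 6.26 CPM (SD, n = 3) and 194 ± 238 CPM (SD, n = 4). The fitted log2 fold change was 3.08 (SE 0.89) with an unadjusted p of 0.0092 and an adjusted p of 0.37 in edgeR. The exact permutation p, two-sided, was 0.0286, the smallest that 35 splits of 7 tumors allow. Without Dnmt3a+/- BM replicate 2 the log2 fold change was 1.73 (unadjusted p = 0.00055, adjusted p = 0.54 in edgeR). DESeq2 gave an adjusted p of 0.0039 where its distance cutoff was off. Within BMT18 the log2 fold change was 4.00 and within BMT8 it was 1.43.

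Markers of other cell types that could supply Lcn2 were measured in the same tumors. The summed level of 12 neutrophil markers was 250 to 315 CPM in the Dnmt3a+/+ BM tumors and 190 to 296 CPM in the Dnmt3a+/- BM tumors, and was lowest in replicate 2 of the latter. The granule genes Ngp, Camp, Mpo and Elane, among those 12, had at most 6 counts in any tumor. Ly6g made up the largest share of these sums, at 64.3 to 199 CPM. In Dnmt3a+/- BM replicate 2, Ly6g, S100a8 and S100a9 were at their lowest of all tumors, at 64.3, 21.5 and 32.45 CPM. Csf3r and Mmp8 were at their highest there, at 8.88 and 1.41 CPM. Mmp9 alone of the 8 tested had an unadjusted p under 0.05 in edgeR and was higher, as were 5.83% of all genes. It was at 52.9 CPM in Dnmt3a+/- BM replicate 2 against 2.59 to 11.7 CPM elsewhere. The summed level of 10 macrophage markers, 9 of which had a higher fitted level in the Dnmt3a+/- BM tumors, was 83.2 to 159 CPM in the controls, 623 CPM in Dnmt3a+/- BM replicate 2 and at most 161 CPM in the other Dnmt3a+/- BM tumors. Il22, named here after its counts were seen, had 65 counts in that same tumor and at most 2 in any other, and was too low to be tested. The macrophage sum was 84.4 to 161 CPM in the other 3 Dnmt3a+/- BM tumors. The part of neutrophils and macrophages in the Lcn2 level of any tumor was not tested.

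**Figure D2:**
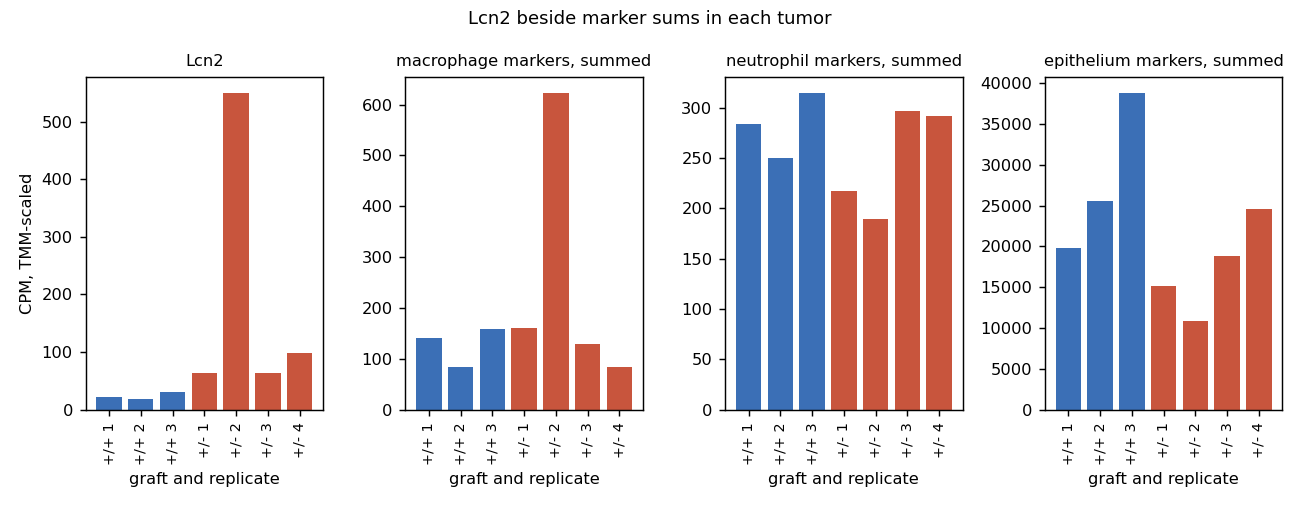
CPM of Lcn2 and summed CPM of 10 macrophage, 12 neutrophil and 10 epithelium markers in each tumor (linear axes from 0; blue Dnmt3a+/+ BM, red Dnmt3a+/- BM). Dnmt3a+/- BM replicate 2 has the highest Lcn2 (550 CPM) and macrophage sum (623 CPM) and the lowest neutrophil (190 CPM) and epithelium (10816 CPM) sums. Within the neutrophil sum, Ly6g, S100a8 and S100a9 are lowest in that tumor, and Csf3r, Mmp8 and Mmp9 are highest.

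Duox2 encodes a dual oxidase that releases hydrogen peroxide at the apical surface, and Duoxa2 the maturation factor that carries it there. They lie head to head on chromosome 2, Duox2 at chr2:122279247-122298449 on the minus strand and Duoxa2 at chr2:122298900-122302885 on the plus strand, with 450 bases between their starts. The region upstream of Duoxa2, from RefSeq on GRCm38.p6 at chr2:122298650-122298899, is printed because it is the space the pair shares, with the TATAAA letters at -30 to -25 in capitals.
Duoxa2: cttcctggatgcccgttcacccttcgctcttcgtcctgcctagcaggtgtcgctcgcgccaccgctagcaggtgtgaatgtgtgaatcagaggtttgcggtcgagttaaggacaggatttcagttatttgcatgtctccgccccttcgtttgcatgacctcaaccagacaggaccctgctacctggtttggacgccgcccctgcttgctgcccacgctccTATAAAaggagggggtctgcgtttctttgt
The RefSeq start of Duox2 lies inside its GENCODE first exon, so most of the 250 bases before that start are exonic in GENCODE, and they hold no TATAAA. That window and the one upstream of Duoxa2 were identical at 148 of 297 aligned columns, or 49.8%, with a longest shared run of 8 bases.

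Duox2 was at 160, 190 and 368 CPM in the Dnmt3a+/+ BM tumors and at 167, 128, 160 and 152 CPM in the Dnmt3a+/- BM tumors. The groups overlapped, and the log2 fold change of -0.66 (SE 0.29, edgeR adjusted p = 0.46; exact permutation p = 0.086) was -0.21 without Dnmt3a+/+ BM replicate 3. Duoxa2 was at 162, 140 and 309 CPM in the Dnmt3a+/+ BM tumors. It was at 116, 89.1, 99.0 and 101 CPM in the Dnmt3a+/- BM tumors. Every Dnmt3a+/- BM tumor lay below every control, with means of 101 ± 10.9 CPM (SD, n = 4) and 204 ± 91.7 CPM (SD, n = 3). The log2 fold change of Duoxa2 was -1.01 (SE 0.28), with an unadjusted p of 0.0070, an adjusted p of 0.36 in edgeR and 0.079 in DESeq2. Its exact permutation p was 0.0286, again the smallest possible. Without Dnmt3a+/+ BM replicate 3 the value was -0.58.

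The ratio of Duoxa2 to Duox2 counts within a tumor does not depend on scaling to library size. It was 1.01, 0.74 and 0.84 in the Dnmt3a+/+ BM tumors and 0.69, 0.70, 0.62 and 0.67 in the Dnmt3a+/- BM tumors. The groups did not overlap, with means of 0.86 ± 0.14 (SD, n = 3) and 0.67 ± 0.036 (SD, n = 4) and a gap of 0.039 between the nearest tumors. This ratio was 1 of 3 chosen after the values were seen, with an exact permutation p of 0.0286 and 0.086 after Benjamini-Hochberg adjustment over the 3. The 3' end of Duoxa2 overlaps that of Duoxa1 on the opposite strand by 695 bases, and 584 of the 1493 windows of 100 bases in Duoxa2 transcripts, or 39.1%, also occur in Duoxa1 read in antisense. The library kit keeps strand, but the strand setting of the counting is not given in the sources used here. Duoxa1 was at 37.0, 11.2 and 14.8 CPM in the Dnmt3a+/+ BM tumors and at 33.4, 3.12, 7.49 and 9.57 CPM in the Dnmt3a+/- BM tumors. It was highest in replicate 1 of each group. The Duoxa2 to Duox2 ratio was highest in replicate 1 among the controls, and was close in Dnmt3a+/- BM replicates 1 and 2, at 0.69 and 0.70. The part of Duoxa1 reads in this ratio was not tested. For the epithelium that makes both proteins, 9 of 10 markers had a lower fitted level in the Dnmt3a+/- BM tumors, with a median log2 fold change of -0.57. Only 2 were at an unadjusted p under 0.05 in edgeR, against 11.0% of all genes. Of these, Lgals4 was lower, at -0.96 (SE 0.38), and Cdx2 was higher, at 0.79 (SE 0.29). The marker sums overlapped, at 19799 to 38798 CPM in the controls and 10816 to 24617 CPM in the Dnmt3a+/- BM tumors. The part of these markers in the Duox2 and Duoxa2 values was not tested.

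**Figure D3:**
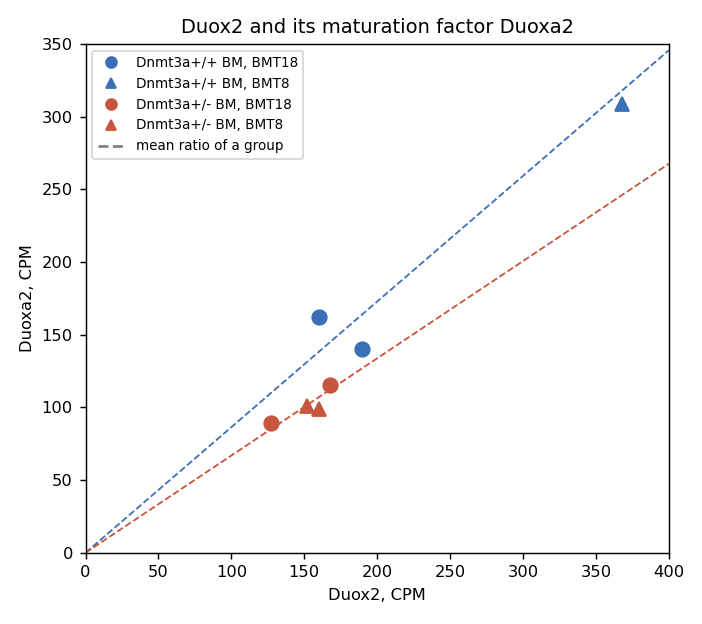
Duoxa2 CPM against Duox2 CPM, 1 point per tumor (blue Dnmt3a+/+ BM, red Dnmt3a+/- BM, circles BMT18, triangles BMT8); each dashed line has the mean ratio of its group, 0.86 and 0.67. The 4 Dnmt3a+/- BM tumors lie near the lower line and the 3 controls above it.

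Nos2 encodes inducible nitric oxide synthase, made by inflamed epithelium and activated macrophages, at chr11:78920787-78960254 on the plus strand. It was at 40.5, 61.2 and 142 CPM in the Dnmt3a+/+ BM tumors and at 87.0, 74.5, 42.6 and 21.2 CPM in the Dnmt3a+/- BM tumors. The groups overlapped, with the highest and the lowest tumor both from BMT8. The log2 fold change was -0.53 (SE 0.56, edgeR adjusted p = 0.77; exact permutation p = 0.51), and 0.15 without Dnmt3a+/+ BM replicate 3. In Dnmt3a+/- BM replicate 2, where the macrophage sum was highest, Nos2 was within the range of the other tumors.

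The 2 transplantation experiments gave fold changes of opposite sign for 4 of the 10 genes, Reg3b, Reg3g, Nos2 and Lyz1. For the first 3 the groups did not overlap within either experiment. The shares of all genes with opposite signs, or without overlap in both experiments, were not counted. With 2 against 2 and 2 against 1 tumors, groups can easily lie apart without a difference between the grafts. Lyz1 was at 0.17 (SE 0.45) in BMT18, where its groups overlapped, and at -1.30 in BMT8. In BMT18, both Dnmt3a+/- BM tumors were above both controls for Reg3b, Reg3g and Nos2, with log2 fold changes of 1.14 (SE 0.37), 0.82 (SE 0.21) and 0.68 (SE 0.25). In BMT8, both were below the single control, with log2 fold changes of -5.02 for Reg3b, -3.54 for Reg3g and -2.16 for Nos2. The interaction of graft and experiment had unadjusted p-values of 0.00021 for Reg3b, 0.00023 for Reg3g and 0.0034 for Nos2 in edgeR, and of 0.067 for Lyz1. At an unadjusted p under 0.05 the interaction was found for 5 of the 10, with Duox2 and Duoxa2 as the other 2, against 4.62% of all genes. Every adjusted p was 0.9999, and the BMT8 side rests on Dnmt3a+/+ BM replicate 3 alone, so the experiment and that tumor cannot be told apart. In BMT18 alone, 6 of the 10 genes were at an unadjusted p under 0.05 (Reg3b, Reg3g, Ang4, Pla2g2a, Lcn2 and Duoxa2), against 9.46% of all genes, and the lowest adjusted p was 0.49. Lcn2, Pla2g2a and Ang4 had the same sign in both experiments, higher in the Dnmt3a+/- BM tumors, and Reg4, Duox2 and Duoxa2 were lower in both. With the experiment as a covariate, 5 of the 10 were at an unadjusted p under 0.05 (Reg4, Pla2g2a, Lcn2, Duox2 and Duoxa2), against 14.7% of all genes, and the lowest adjusted p was 0.26.

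**Figure D4:**
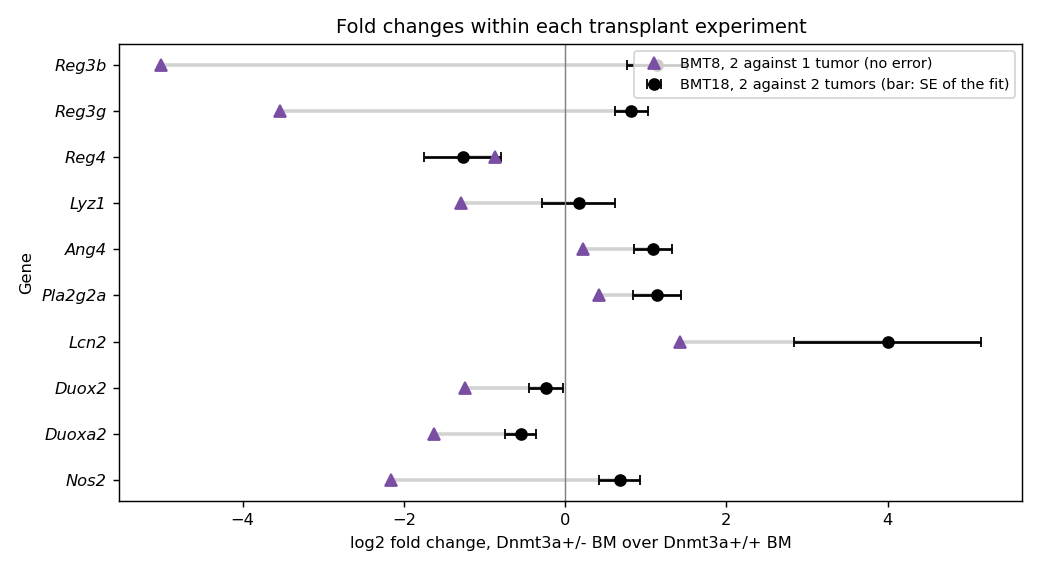
Log2 fold change, Dnmt3a+/- BM over Dnmt3a+/+ BM, of each gene within BMT18 (circles with the SE of the fit, 2 against 2 tumors) and within BMT8 (triangles, 2 against 1 tumor, no error). Reg3b, Reg3g, Lyz1 and Nos2 lie on opposite sides of 0 in the 2 experiments, from -5.02 to 1.14 for Reg3b.

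**Figure D5:**
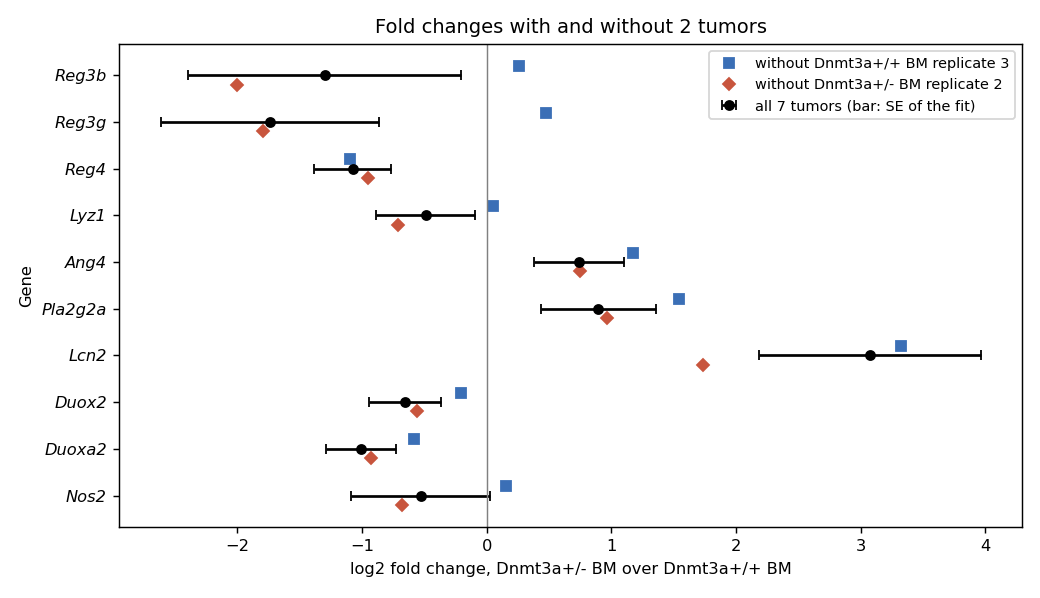
Log2 fold change of each gene over all 7 tumors (black, bars are the SE of the fit), without Dnmt3a+/+ BM replicate 3 (blue squares) and without Dnmt3a+/- BM replicate 2 (red diamonds). Without the first tumor Reg3b, Reg3g, Lyz1 and Nos2 lie above 0, and without the second Lcn2 lies at 1.73 in place of 3.08.

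Other genes of the same defense system were described by 5 lists. None of their 81 tested genes was called by edgeR or by DESeq2, where the share over all genes was 0.00% and 1.87%. At an unadjusted p under 0.05 in edgeR there were 13 of 81, 3 higher and 10 lower, or 16.0%, against 11.0% of all genes. In the list of C-type lectins and Paneth cell products, 13 of 22 genes were tested. Its C-type lectins, Reg1, Reg2, Reg3a and Reg3d, reached no more than 3 counts in any tumor and were not among the 13. Of the 13, 10 had a higher fitted level in the Dnmt3a+/- BM tumors, with a median log2 fold change of 0.66. Most of these 10 were alpha-defensin genes, and Lyz2, the lysozyme of myeloid cells, was another. Without Dnmt3a+/+ BM replicate 3 there were 11 of 13 higher with a median of 2.05, and without Dnmt3a+/- BM replicate 2 there were 7 of 13 with a median of 0.24, so both count and median rest on these tumors. Mmp7, the protease that activates defensins in the mouse, had a mean of 107 ± 21.2 CPM (SD, n = 3) in the Dnmt3a+/+ BM tumors and 256 ± 125 CPM (SD, n = 4) in the Dnmt3a+/- BM tumors, without overlap (log2 fold change 1.26, SE 0.38, edgeR adjusted p = 0.38). No other gene of the 13 lacked overlap, and 6.12% of all genes did not overlap in that direction.

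The list of secreted defense proteins of goblet cells and colonocytes had the opposite sign, with 15 of 17 tested genes lower and a median log2 fold change of -0.87. Its 4 genes of lowest p, Pigr, Lypd8, Dmbt1 and Sprr2a3, were lower and did not overlap between the groups. No other gene of the 17 lacked overlap, and 6.32% of all genes did not overlap in that direction. Genes picked by lowest p in the same tumors tend to lie apart. The remaining gene at an unadjusted p under 0.05, Saa3, named after its values were seen, had the opposite sign, at 1.59 (SE 0.62, unadjusted p = 0.035), and its groups overlapped. Lypd8, which coats flagellated bacteria, had means of 13706 ± 1909 CPM (SD, n = 3) and 6169 ± 2358 CPM (SD, n = 4). Its log2 fold change was -1.15 (SE 0.38, edgeR adjusted p = 0.39). Pigr, the receptor that carries immunoglobulin A into the lumen, had means of 2765 ± 1080 CPM and 1160 ± 370 CPM and a log2 fold change of -1.25 (SE 0.37, edgeR adjusted p = 0.38). Dmbt1, a scavenger receptor of mucosal surfaces, had a log2 fold change of -0.82 (SE 0.29), and Sprr2a3, of the small proline-rich proteins, -1.20 (SE 0.44). Sprr2a1 and Sprr2a2, named after their values were seen, were at -1.36 (SE 0.63) and -1.23 (SE 0.58), and their groups overlapped. Sprr2a2 had means of 9860 and 4198 CPM, against 669 and 292 CPM for Sprr2a3. How reads were divided among these related genes, all among the 15 lower, was not examined. The goblet and epithelium markers given above had mostly the same sign, and their part was not tested.

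Among 17 tested oxidant and nitric oxide genes, 12 were lower and 5 higher, with a median log2 fold change of -0.26. Without both tumors that stand apart the median was 0.02, with 9 higher and 8 lower. Nox1, the superoxide-producing oxidase of colonocytes, was lower by its fitted log2 fold change of -0.96 (SE 0.36, unadjusted p = 0.029, edgeR adjusted p = 0.42), and Gch1, which starts synthesis of the nitric oxide synthase cofactor, by -0.81 (SE 0.33, unadjusted p = 0.038, edgeR adjusted p = 0.43). Gch1 was at 169 CPM in Dnmt3a+/+ BM replicate 3 and at 68.8 and 81.1 CPM in the other controls, and its log2 fold change without replicate 3 was -0.31. The inducing cytokines and receptors had 24 of 27 genes tested, 9 higher and 15 lower, with a median of -0.33, but 12 higher and 12 lower with a median of 0.046 in BMT18 alone. The 4 with the lowest p in that list had negative fold changes: the IL-17 receptor subunit gene Il17rc at -0.82 (SE 0.28), the IL-17 and Toll-like receptor co-regulator gene Nfkbiz at -0.43 (SE 0.15), the transcription factor gene Cebpb at -0.97 (SE 0.35) and the interferon gamma receptor gene Ifngr1 at -0.55 (SE 0.22). The edgeR adjusted p of these 4 was 0.41 to 0.43. Il17rc, Nfkbiz and Ifngr1 did not overlap between the groups. No other gene of the 24 lacked overlap, and 6.32% of all genes did not overlap in that direction. These genes too were picked by lowest p in the same tumors. Il23a, the IL-23 subunit gene, named after its values were seen, was the list's other gene at an unadjusted p under 0.05 and had the opposite sign, at 2.05 (SE 0.87, unadjusted p = 0.047), with 1.35 without Dnmt3a+/- BM replicate 2 and 3.31 without Dnmt3a+/+ BM replicate 3. None of the 10 secretory lineage regulators was at an unadjusted p under 0.05, 4 were higher and 6 lower, and their median was -0.23.

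Per kilobase of exon, Lyz1 and Reg4 had the highest mean levels over the 7 tumors, at 229 ± 107 and 227 ± 123 CPM per kilobase (SD, n = 7). Lyz1 was above Reg4 in 5 of 7 tumors, so their order is within the spread. Pla2g2a followed at 112 ± 58.6 and Duoxa2 at 91.2 ± 48.1 CPM per kilobase, and Pla2g2a was above Duoxa2 in 4 of 7 tumors. Lcn2 was at 45.9 ± 73.0 CPM per kilobase, with a range of 6.78 to 210, and with the median transcript length in place of the union of exons it was at 139. Ang4, Reg3g and Duox2 lay at 35.4, 34.3 and 27.9 CPM per kilobase, and Reg3b and Nos2 were lowest at 16.2 and 15.2, with Reg3b above Nos2 in 3 of 7 tumors. In each of the 9 adjacent pairs of this order, the means differed by less than the larger of the pair's SDs over tumors, and the position of Lcn2 depends on the transcript length used. Compared within tumors, Duoxa2 was above Lcn2, and Ang4 above Reg3g, in 6 of 7. Reg4 was above Pla2g2a, and Duox2 above Reg3b, in 5 of 7. Lcn2 was above Ang4, and Reg3g above Duox2, in 2 of 7.

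By Pearson r of log2 CPM over the 7 tumors, given as likeness without a test, each gene was closest to another of 15713 genes. For Lcn2 this was Flt1, a VEGF receptor gene, at an r of 0.998, and both were highest in the same tumor. Duoxa2 was closest to Cldn23, a claudin gene, at 0.994 and Duox2 to Psmb10, an immunoproteasome subunit gene, at 0.991. Reg3g was closest to Arid3a at 0.990, Reg3b to Plaur, the urokinase receptor gene, at 0.969, and Reg4 to the GDP-fucose transporter gene Slc35c1 at 0.982. Pla2g2a was closest to Erp27 at 0.993, Ang4 to Trib2 at 0.975, Lyz1 to Dda1 at 0.974 and Nos2 to Apol10b at 0.974. Among the 10 genes themselves, the highest r was 0.930, between Duox2 and Duoxa2, with Reg3b and Nos2 at 0.809. All of these values share the same 7 libraries, and several rest on a single high tumor.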

How the data were processed

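Poly(A) RNA of 7 whole colon tumors was sequenced with a directional kit. Per the labels and the methods, the authors trimmed reads with Trimmomatic, aligned them to mm10 with STAR and estimated counts per gene with RSEM. The deposited values are those estimated counts, all whole numbers (100% of values), without normalization, and were used as deposited. The annotation release and the strand setting are not given in the sources used here. Symbols and positions are from GENCODE M21. Rows that matched no symbol took 0.104% of all counts.

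The grafts were compared in R 4.3.3 by edgeR's quasi-likelihood test (version 4.0.16), without a covariate, after filterByExpr and TMM scaling. P-values were adjusted by Benjamini-Hochberg over 15810 genes, and calls needed an adjusted p below 0.05 together with a change above 1 on the log2 scale. SE was the log2 fold change over the square root of F. CPM were TMM-scaled. Single genes were also compared by an exact permutation test of mean log2 CPM (prior count 2) over 35 splits, two-sided. Alternatives included DESeq2 1.42.0, other scalings, no filter, the experiment as a covariate, a replicate block and each tumor left out. The tools were tested on simulated data. The labels call the tumors biological replicates, and p-values measure the spread between them.

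The 10 genes, the lists and the cell type markers were chosen with earlier results of these data known. Beyond the 10 genes, Dnmt3a and near-identical family members, the text names from each list the genes with an unadjusted p under 0.05, at most 4 by lowest p, and for each of the 10 the most similar gene by Pearson r over the 7 tumors. Upstream sequences are from RefSeq (GRCm38.p6), searched on both strands over 250 bases for TATAAA, TTCNNNGAA, TTGCNNAA and the kappaB core.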

Additional observations from a re-analysis of the deposited data

Results flagged for a closer look

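Lcn2 in Dnmt3a+/- BM replicate 2, at 550 CPM, lay far from the other 3 tumors of its group: its gap to the nearest of them was 0.926 of the group's range, above Dixon's critical value for 4 samples. It was the only 1 of the 10 genes with such a tumor in this group. Chance alone gives about 1 in 20 for each gene with normally spread values, and 10 genes were searched, on CPM without a log scale.

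Reg3b, Reg3g and Nos2 differed between the grafts in opposite directions in the 2 transplantation experiments. The difference between experiments was -6.12 log2 units for Reg3b (SE 0.73), -4.34 for Reg3g (SE 0.53) and -2.82 for Nos2 (SE 0.58), BMT8 minus BMT18. By the interaction test in edgeR the unadjusted p-values were 0.00021, 0.00023 and 0.0034 and the adjusted p was 0.9999 for each. The BMT8 difference has 1 control tumor, Dnmt3a+/+ BM replicate 3.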

How the results depend on the processing

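No gene of the 10, and none of the 81 wider-list genes, was called under any edgeR setting, and DESeq2 called 0 of both. The exception, DESeq2 without its distance cutoff, chosen after seeing the data, called 1 of the 10, Lcn2, at a log2 fold change of 3.09 (adjusted p = 0.0039). Over all genes DESeq2 called 300, and 315 without the cutoff, against 0 by edgeR, which had 1744 genes at an unadjusted p under 0.05. The cause was not tested. Leaving out each tumor in turn gave 3 to 7 of the 10 genes higher. In BMT18 alone 7 were higher, and with both tumors that stand apart left out, a setting added after seeing the data, 4 were. In BMT18 alone the log2 fold change was 1.14 for Reg3b, 0.82 for Reg3g, 0.17 for Lyz1 and 0.68 for Nos2, each with its sign reversed. Each tumor left out in turn gave -2.0 to 0.26 for Reg3b, -2.23 to 0.48 for Reg3g, -0.75 to 0.047 for Lyz1 and -0.86 to 0.15 for Nos2, positive only without Dnmt3a+/+ BM replicate 3. With both tumors left out Reg3g was at 0.42, and the difference in mean log2 CPM of Reg3g was -1.47 to 0.40 with each tumor left out, positive only without Dnmt3a+/+ BM replicate 3. The other 6 genes kept their sign under every setting. For Lcn2 each tumor left out gave 1.73 to 3.41, the lowest without Dnmt3a+/- BM replicate 2. With 6 tumors the permutation test cannot pass 0.05. The replicate block left 0 of 10 called, with 5 at an unadjusted p under 0.05, against 11.9% of all genes. Same-numbered tumors deviated with correlations of 0.57, 0.07 and -0.04, so the numbers do not pair them. Reg3b had at least 62 counts in every tumor and the other 9 at least 538, so depth limits only Il22 and other genes at a few counts.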

Other observations

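The alpha-defensin genes, Mptx2 and Il22 were not part of any called difference, but their counts differed widely between single tumors. Mptx2, a pentraxin of Paneth cells, had 80 counts in Dnmt3a+/+ BM replicate 3 and 192 in Dnmt3a+/- BM replicate 2, and 1 to 9 in the other 5 tumors. Defa17 was at 0.64 to 18.3 CPM and Defa24 at 3.04 to 36.0 CPM over the 7 tumors, with the groups overlapping. Reg1, Reg2 and Reg3d, lectin genes of the same cluster as Reg3b, had at most 1 count in any tumor. Itln1, an intelectin gene, was at 274 CPM in Dnmt3a+/+ BM replicate 3 and at 37.1 to 152 CPM in the other 6 tumors.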
